A study of Mus musculus with 15 samples.

Results

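The transcripts of Nr3c1, the gene of the glucocorticoid receptor, and of 9 of its classical target genes were followed in dystrophic mouse muscle under 2 schedules of the synthetic glucocorticoid prednisone. The targets were Fkbp5, Tsc22d3, Zbtb16, Klf9, Sgk1, Arrdc2, Bcl6, Lpin1 and Cited4. The genes were taken by symbol, and all 10 were found among the 14272 named features and passed the filter on low values. The study sequenced RNA from quadriceps of male DBA/2J-mdx mice, a strain that lacks dystrophin and serves as a model of Duchenne muscular dystrophy. There were 15 libraries in 3 groups of 5. In the daily group prednisone was injected at 1 mg/kg on 7 occasions a week. Weekly mice received the same 1 mg/kg 1 time a week, and vehicle on the other 6 occasions. Vehicle mice were given only the solvent, DMSO, also 7 times a week. Every injection was intraperitoneal, and every mouse of all 3 groups carried the mdx mutation, so no group had healthy muscle. The age is stated as 6 months in the protocol and as about 7 months with the samples. The length of treatment and the hours between the last injection and dissection are not given in the sources used here. Separate mice behind the libraries of a group are not stated either, so each p-value measures the spread between libraries, which may be technical.

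The receptor rests in the cytoplasm in a complex with HSP90 and its co-chaperones, and hormone binding sends it to the nucleus, where it binds DNA and switches genes on or off. FKBP5 is a co-chaperone that lowers the affinity of the receptor for hormone, and its gene is itself induced by the receptor, which closes a feedback loop. In many cells hormone also lowers the transcript of the receptor. In skeletal muscle the receptor is known for its control of protein breakdown and of fuel use.

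Promoter sequences are shown for 4 targets, since the receptor binds DNA at pairs of a short motif. RefSeq promoter windows of build GRCm38.p6 run from 250 bases before to 50 bases after each annotated start. They were used for 8 of the 10 genes, in 16 windows, since several genes have more than 1 start. Zbtb16 had no window, and Nr3c1 was left out of these counts by choice. Each window was searched on both strands for the hexamer AGAACA and for the palindrome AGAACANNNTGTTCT, in which the hexamer stands 2 times, facing itself, so that every palindrome also counts as hexamer matches. Sgk1 and Tsc22d3 are shown because a match was found in them. Fkbp5 and Arrdc2 are shown because they are the targets with the largest changes under daily dosing, and neither motif was found in these windows. Capitals mark the palindrome or the hexamer, on either strand. The windows are Sgk1 start 5 of 6 at chr10:21993640-21993939 (plus strand), Tsc22d3 start 1 of 3 at chrX:140600473-140600772 (minus strand), Fkbp5 at chr17:28486100-28486399 (minus strand) and Arrdc2 at chr8:70839671-70839970 (minus strand), each read on the strand of its gene.
Sgk1: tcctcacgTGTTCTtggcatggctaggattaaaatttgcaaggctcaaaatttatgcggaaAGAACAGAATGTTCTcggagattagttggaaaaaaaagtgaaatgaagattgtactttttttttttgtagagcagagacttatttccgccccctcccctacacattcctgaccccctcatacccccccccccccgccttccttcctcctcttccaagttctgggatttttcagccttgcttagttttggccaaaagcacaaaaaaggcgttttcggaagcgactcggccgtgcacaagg
Tsc22d3: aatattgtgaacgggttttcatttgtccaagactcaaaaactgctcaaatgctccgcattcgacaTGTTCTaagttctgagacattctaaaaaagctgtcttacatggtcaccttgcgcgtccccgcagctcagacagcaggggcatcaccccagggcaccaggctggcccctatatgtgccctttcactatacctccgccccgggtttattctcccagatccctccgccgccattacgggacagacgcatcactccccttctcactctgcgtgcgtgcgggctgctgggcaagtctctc
Fkbp5: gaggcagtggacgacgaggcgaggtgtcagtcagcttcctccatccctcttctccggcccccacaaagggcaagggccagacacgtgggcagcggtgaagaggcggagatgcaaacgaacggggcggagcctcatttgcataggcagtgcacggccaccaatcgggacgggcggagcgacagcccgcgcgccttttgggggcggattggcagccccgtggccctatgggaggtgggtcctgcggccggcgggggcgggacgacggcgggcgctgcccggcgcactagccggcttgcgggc
Arrdc2: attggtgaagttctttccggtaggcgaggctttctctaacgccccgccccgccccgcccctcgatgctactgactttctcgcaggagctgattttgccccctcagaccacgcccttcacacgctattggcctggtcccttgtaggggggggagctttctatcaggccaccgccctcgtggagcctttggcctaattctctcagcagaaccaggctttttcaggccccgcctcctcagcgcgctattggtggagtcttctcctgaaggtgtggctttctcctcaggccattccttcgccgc

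The Sgk1 window held the exact palindrome as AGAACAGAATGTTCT, with its first base at position -189 from the start. Over all promoters of the table, 3 of 32851 windows held it, which is 0.00913%, and they belonged to 3 of 27025 genes. The hexamer was found in 4 of the 8 genes, against 21.3% of all genes, and in 6 of the 16 windows, against 19% of all windows. A gene counted if any of its windows held the hexamer. The 8 genes had 16 windows, of which 6 were of Sgk1, while all 27025 genes had 32851. The shares of genes are therefore not like for like. In Tsc22d3 the hexamer began at position -185, in Lpin1 at -163 and in Bcl6 at -124. None was found in the windows of Klf9 and Cited4. A match is a description of letters, and binding was not measured here.

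Values are CPM, the reads of a gene scaled to the depth of its library. Depth lay between 2780768 and 11052552 reads, so that 3 reads corresponded to between 0.271 and 1.08 CPM. All 10 of 10 skeletal muscle markers were measured, with summed levels of at least 47745 CPM in every library. The libraries of the groups were unequal in spread. The biological coefficient of variation over all tested genes, which is the spread between libraries beyond read sampling, was 9.4% in daily, 29.4% in weekly and 3.55% in vehicle libraries. Weekly 4, the shallowest library, stood apart. Its 8 of 8 fibroblast markers summed to 19355 CPM, where the other 4 weekly libraries had 1790 to 2706 CPM, and 7 of 8 macrophage markers summed to 1538 CPM, against 171 to 437 CPM. Most of the fibroblast sum came from the collagen genes Col3a1 (10610 CPM) and Col1a1 (7723 CPM). Dpt, Fbn1, Pdgfra and Mfap5 were also above the other weekly libraries, while Dcn (96.4 CPM) and Lum (26.3 CPM) lay within their range. The mitochondrial ribosomal RNA mt-Rnr2 held 0.567% of its reads, against 6.22 to 14.4% in the other 14 libraries. That share was 8.05 to 14.4% in daily, 0.567 to 9.41% in weekly and 12.6 to 13.4% in vehicle libraries, so it was lower in every weekly than in every vehicle library, and its part in the results was not tested. Without weekly 4 the variation of the group was 16.9%. Daily 3 also stood apart, with 20.5% of its reads on the single feature Gm26924, against at most 3.02% in any other library. Leaving it out, the daily group varied by 8.27%. TMM, a trimmed-mean scaling of libraries, gave daily 3 a factor of 0.652 and the other 14 libraries factors of 0.952 to 1.21.

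In daily muscle Arrdc2, Fkbp5 and Zbtb16 rose against vehicle, 3 of 10 genes where 1.76% of all tested genes rose. Nr3c1 fell, 1 of 10 where 2.13% of all genes fell. In weekly muscle Fkbp5 and Zbtb16 rose against vehicle, 2 of 10 where 6.99% of all genes rose, and 0 of 10 fell where 1.07% fell. Between the schedules Arrdc2 was higher in daily than in weekly muscle, 1 of 10 where 0.484% of all genes were higher, and 0 of 10 were lower where 8.24% of all genes were. Passing the test means an adjusted p under 0.05 with limma, a linear model fitted to log2(CPM + 0.5) of all 14059 tested genes and all 15 libraries, with Benjamini-Hochberg (BH) adjustment.

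Those counts depended in part on the tool and the scaling. At an unadjusted limma p under 0.05, 0 members fell in weekly against vehicle and 1 was lower in daily against weekly. By edgeR on recovered reads 0 fell in either comparison, and by DESeq2 1 fell in weekly against vehicle, which was Bcl6, and 0 in daily against weekly. TMM scaling gave 4 rising and 1 falling members in daily against vehicle, 2 and 0 in weekly against vehicle, and 2 and 0 in daily against weekly. Over all genes it gave 784 rising and 490 falling genes, in place of 248 and 299, in daily against vehicle. It gave 804 and 593, in place of 983 and 150, in weekly against vehicle, and 292 and 371, in place of 68 and 1159, in daily against weekly. The median log2 change of all genes on the deposited scale was -0.08 in daily against vehicle, 0.17 in weekly against vehicle and -0.24 in daily against weekly. After TMM scaling these medians were 0.0012, 0.0052 and 0.012 in the same order. The median of the 10 members was 0.24 in daily against vehicle, 0.35 in weekly against vehicle and -0.07 in daily against weekly. Daily and weekly were set against the same vehicle libraries, so the comparisons with vehicle are not independent of each other.

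**Figure D1:**
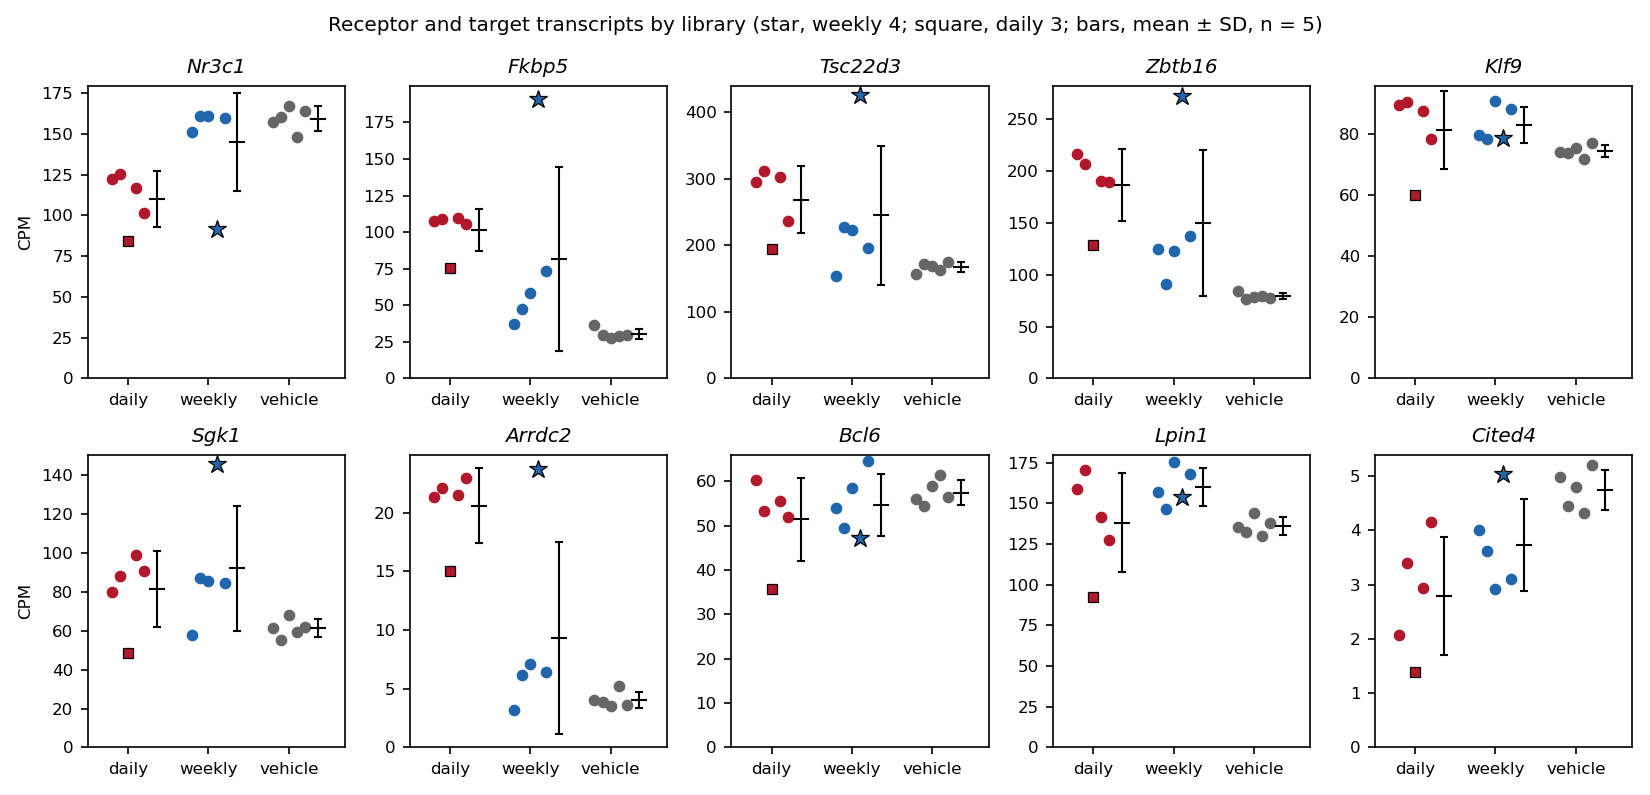
CPM of the receptor gene and its 9 targets in each library, one panel per gene, with daily, weekly and vehicle libraries from left to right and the mean ± SD of each group (n = 5) beside the points. Weekly 4 is drawn as a star and daily 3 as a square; Fkbp5 is at 191 CPM in weekly 4, and Arrdc2 is at 15.02 to 23 CPM in daily libraries, above all vehicle libraries.

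The receptor itself was lower under daily dosing. Its gene lies at chr18:39410545-39519421 (minus strand) of GRCm38. Nr3c1 had 122, 125, 84.3, 117 and 101 CPM in daily libraries 1 to 5. It had 151, 161, 161, 91.7 and 160 CPM in weekly libraries 1 to 5, and 158, 160, 167, 148 and 164 CPM in vehicle libraries 1 to 5. All daily libraries lay below all vehicle libraries, while weekly 4 lay among the daily libraries and the other weekly libraries lay within the range of the vehicle libraries. Nr3c1 fell by 0.55 on the log2 scale in daily against vehicle (SE 0.15, limma BH-adjusted p = 0.0486, lower in 5 of 5 libraries). Relative to the median of all genes the change was -0.47. The exact permutation test of 5 against 5 libraries, two-sided, gave p = 0.00794, the smallest value that its 252 arrangements allow. The limma call was marginal, and 19 of 30 alternatives ended it, with adjusted p between 1.53e-05 and 1 over all of them. Among those 19 were TMM scaling (change -0.46, limma BH-adjusted p = 0.0594) and leaving out any single daily or vehicle library, or weekly 2, 3 or 5. Under the weekly schedule the change of Nr3c1 against vehicle was -0.17 (SE 0.15, limma BH-adjusted p = 0.525), and without weekly 4 it was -0.01. This weekly result turned in part on the scaling. After TMM scaling weekly 1, 3, 4 and 5 lay below all vehicle libraries, and the exact permutation p was 0.0159 in place of 0.389. The weekly change passed in none of the 30 alternatives, with an adjusted p of at least 0.08. Daily against weekly, it was -0.38 (SE 0.15, limma BH-adjusted p = 0.114), -0.11 after TMM scaling, and -0.54 without weekly 4, where it passed. Tissue RNA was measured, so fewer cells of a type that expresses a gene and less RNA per cell cannot be told apart.

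Fkbp5, the feedback co-chaperone at chr17:28399094-28517527 (minus strand), rose under both schedules. It had 108, 109, 75.6, 109 and 106 CPM in daily libraries, 37.4, 47.2, 58.7, 191 and 73.1 CPM in weekly libraries, and 36.5, 29.6, 27.4, 29.3 and 29.7 CPM in vehicle libraries 1 to 5. Every library of either schedule lay above every vehicle library, although weekly 1 cleared the highest vehicle library by less than 1 CPM. Weekly 4 exceeded every daily library, and the other weekly libraries lay below all daily ones. The log2 change was 1.71 in daily against vehicle (SE 0.28, limma BH-adjusted p = 0.000671, higher in 5 of 5 libraries). In weekly against vehicle it was 1.15 (SE 0.28, limma BH-adjusted p = 0.0123, higher in 5 of 5 libraries). Without weekly 4 the weekly change was 0.78 (limma BH-adjusted p = 0.000324), and it was 0.62 with daily 3 also left out and TMM scaling. The exact permutation p was 0.00794 for each schedule against vehicle. A fit of weekly and vehicle libraries alone, without the daily ones, ended the weekly call. Between the schedules the change of 0.56 did not pass (SE 0.28, limma BH-adjusted p = 0.185). Without weekly 4 it was 0.93 and passed (limma BH-adjusted p = 2.2e-05), over adjusted p of 2.03e-06 to 0.37 in the 30 alternatives.

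Zbtb16, a zinc finger transcription factor also called PLZF, lies at chr9:48654297-48836222 (minus strand) and was likewise higher under both schedules. It had 217, 207, 129, 191 and 189 CPM in daily libraries 1 to 5, 125, 91.3, 123, 272 and 137 CPM in weekly libraries, and 84.7, 77.0, 78.8, 79.4 and 77.3 CPM in vehicle libraries. Each schedule lay wholly above vehicle, weekly 4 was the highest library of all, and daily 3 lay below weekly 5. Zbtb16 rose by 1.20 on the log2 scale in daily against vehicle (SE 0.20, limma BH-adjusted p = 0.00102). In weekly muscle it rose by 0.81 against vehicle (SE 0.20, limma BH-adjusted p = 0.0177), by 0.57 without weekly 4 (limma BH-adjusted p = 0.00507), and by 0.40 with daily 3 also left out and TMM scaling. In both, 5 of 5 libraries were higher and the exact permutation p was 0.00794. The difference between daily and weekly libraries was 0.40 and did not pass (SE 0.20, limma BH-adjusted p = 0.205). It passed after TMM scaling, at 0.66 (limma BH-adjusted p = 0.028), and without weekly 4, at 0.64 (limma BH-adjusted p = 0.00152), over adjusted p of 2.03e-06 to 0.416 in the alternatives.

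Arrdc2 at chr8:70835129-70839720 (minus strand), which encodes an arrestin-domain protein, had the largest change of the 10 genes and was the gene that separated the schedules. It had 21.3, 22.1, 15.02, 21.6 and 23 CPM in daily libraries, 3.20, 6.15, 7.15, 23.7 and 6.45 CPM in weekly libraries, and 4.02, 3.86, 3.55, 5.199 and 3.62 CPM in vehicle libraries 1 to 5. The daily libraries lay wholly above the vehicle libraries, on 97 to 166 reads each. Weekly 1 was the lowest of all 15 libraries, weekly 4 was the highest, and the other weekly libraries lay between vehicle and daily. The log2 change was 2.21 in daily against vehicle (SE 0.31, limma BH-adjusted p = 0.000174, higher in 5 of 5 libraries, exact permutation p = 0.00794). Against weekly libraries, daily Arrdc2 rose by 1.39 (SE 0.31, limma BH-adjusted p = 0.00959, exact permutation p = 0.0476). Because weekly 4 exceeded the daily libraries, the groups overlapped. Without weekly 4 the daily libraries lay wholly above the weekly ones, and the change was 1.80 (limma BH-adjusted p = 1.9e-09). For the weekly schedule against vehicle the change of 0.82 did not pass (SE 0.31, limma BH-adjusted p = 0.109), and without weekly 4 it was 0.41. Without weekly 1 it was 1.09 and passed (limma BH-adjusted p = 0.0165, over 0.0165 to 1 in the alternatives).

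**Figure D2:**
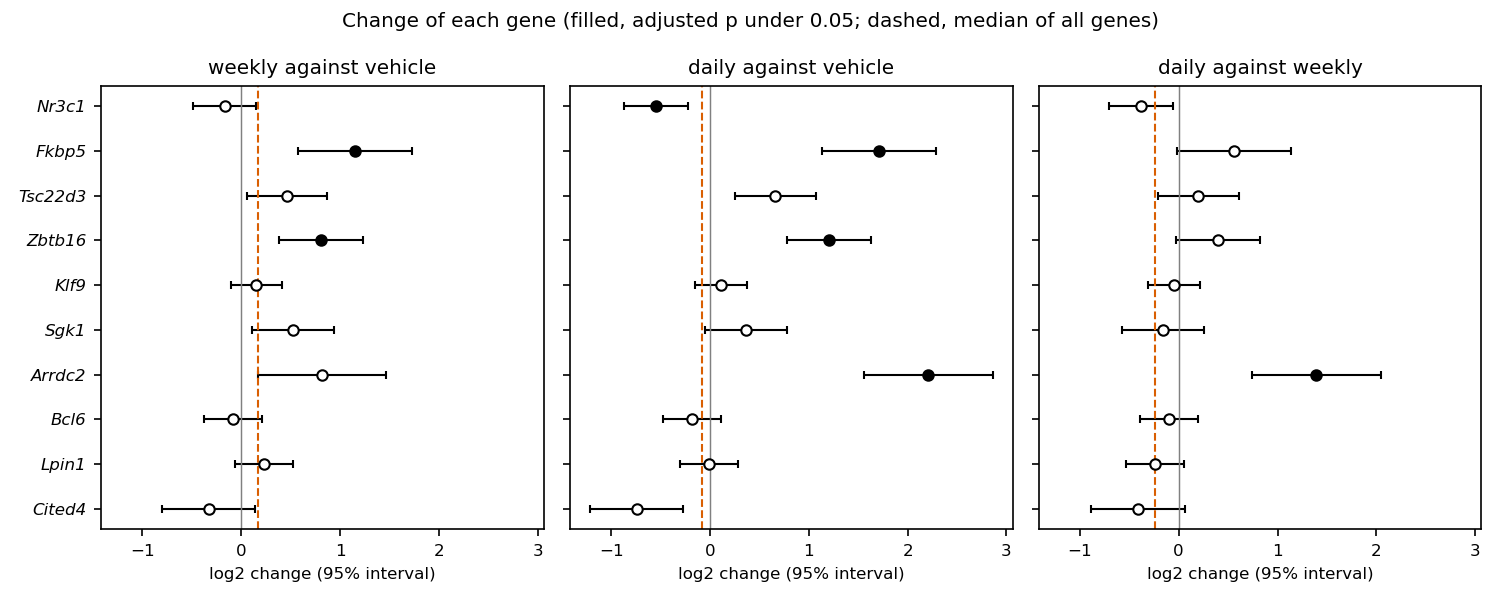
Log2 change of each gene with its 95% interval in the 3 comparisons, from limma on log2(CPM + 0.5); filled points passed an adjusted p of 0.05 and the dashed line is the median change of all tested genes. Fkbp5 and Zbtb16 are filled against vehicle under both schedules, Arrdc2 is filled for daily dosing against vehicle (2.21) and against weekly dosing (1.39), and Nr3c1 is filled to the left of 0 in daily against vehicle (-0.55).

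The anti-inflammatory target Tsc22d3, which encodes GILZ, a leucine zipper protein that binds NF-kappaB and AP-1, came close to the threshold. It had 295, 311, 195, 303 and 237 CPM in daily libraries 1 to 5, 153, 227, 222, 425 and 196 CPM in weekly libraries, and 156, 173, 170, 162 and 175 CPM in vehicle libraries. All daily libraries lay above all vehicle libraries, and weekly 1 lay below them. The change of 0.66 in daily against vehicle did not pass (SE 0.20, limma BH-adjusted p = 0.064), with an exact permutation p of 0.00794. It passed in 12 of 30 alternatives, among them TMM scaling, at 0.75 (limma BH-adjusted p = 0.00575), leaving out daily 3, at 0.77 (limma BH-adjusted p = 0.0305), and leaving out weekly 1 or weekly 4 (limma BH-adjusted p = 0.0334 and 0.000471). Over the alternatives the adjusted p ran from 9.02e-06 to 1. Weekly libraries differed from vehicle by 0.46 (SE 0.20, limma BH-adjusted p = 0.151), and 0.24 without weekly 4. Without weekly 1 it was 0.61 and passed (limma BH-adjusted p = 0.0443, the lowest of the alternatives, which reached 1). Between daily and weekly libraries it was 0.20 (SE 0.20, limma BH-adjusted p = 0.527), and 0.42 without weekly 4, where it passed (limma BH-adjusted p = 0.0424).

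Sgk1, a kinase known for the control of ion transport and the gene with the palindrome shown above, did not pass in any comparison. It had 80.2, 88.2, 48.5, 99.0 and 91.0 CPM in daily libraries 1 to 5, 57.8, 86.9, 85.9, 146 and 84.9 CPM in weekly libraries, and 61.6, 55.5, 68.1, 59.4 and 61.9 CPM in vehicle libraries. In each schedule 4 of 5 libraries lay above all vehicle libraries, and the remaining library, daily 3 or weekly 1, did not. The log2 change was 0.37 in daily against vehicle (SE 0.20, limma BH-adjusted p = 0.368, exact permutation p = 0.0714). In weekly against vehicle it was 0.52 (SE 0.20, limma BH-adjusted p = 0.108, exact permutation p = 0.0397). Each passed in 4 of 30 alternatives. Leaving out daily 3 alone was 1 of them for weekly against vehicle (limma BH-adjusted p = 0.0435, over 0.0217 to 1 in the alternatives), and leaving out weekly 1 was another, at 0.68 (limma BH-adjusted p = 0.0282). Between the schedules the change was -0.16, daily against weekly, and it changed sign in 9 alternatives, to 0.11 after TMM scaling. Without weekly 4 and daily 3 and with TMM scaling it was 0.31 and passed (limma BH-adjusted p = 0.0462, over 0.0462 to 0.966).

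The transcription factor genes Klf9, a Krüppel-like factor, and Bcl6, a repressor, had small changes. Klf9 had 89.6, 90.7, 60.1, 87.7 and 78.6 CPM in daily libraries, 79.7, 78.4, 90.8, 78.8 and 88.2 CPM in weekly libraries, and 74.1, 74.0, 75.6, 72.0 and 77.1 CPM in vehicle libraries 1 to 5. All weekly libraries and all daily libraries other than daily 3 lay above all vehicle libraries. The changes were small, at 0.11 in daily against vehicle (SE 0.13, limma BH-adjusted p = 0.717) and 0.15 in weekly against vehicle (SE 0.13, limma BH-adjusted p = 0.466), where it was -0.03 after TMM scaling. Klf9 passed in daily against vehicle in 3 of 30 alternatives, which were quantile scaling, DESeq2 and leaving out weekly 4 and daily 3 (adjusted p = 0.0491, 0.0402 and 0.044, over 0.0402 to 1 in the alternatives). Daily against weekly, its change was -0.05 (SE 0.13, limma BH-adjusted p = 0.847), but 0.29 with quantile scaling and 0.20 with DESeq2, where it passed (adjusted p = 0.0256 and 0.0353, over 0.0256 to 0.966). The exact permutation p of Klf9 turned on the scaling. It was 0.397 for daily and 0.00794 for weekly against vehicle on the deposited scale, but 0.00794 for daily and 0.794 for weekly after TMM scaling. Bcl6 had 60.4, 53.4, 35.6, 55.7 and 52.0 CPM in daily libraries, 54.1, 49.4, 58.4, 47.1 and 64.5 CPM in weekly libraries, and 56.0, 54.5, 58.8, 61.5 and 56.4 CPM in vehicle libraries 1 to 5. Its groups overlapped in all 3 comparisons on the deposited scale. After TMM scaling all weekly libraries (38.9 to 55.0 CPM) lay below all vehicle libraries (56.0 to 63.0 CPM). The exact permutation p of Bcl6 in weekly against vehicle was then 0.00794 in place of 0.373. Bcl6 passed in that comparison in 2 of 30 alternatives, which were median centring and DESeq2 (lowest adjusted p = 0.0436). The change was -0.18 in daily against vehicle (95% interval -0.47 to 0.11, limma BH-adjusted p = 0.565) and -0.08 in weekly against vehicle (95% interval -0.37 to 0.21, limma BH-adjusted p = 0.769).

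Lpin1 encodes a phosphatidate phosphatase of lipid synthesis. It had 159, 170, 92.5, 142 and 127 CPM in daily libraries 1 to 5, 157, 146, 176, 154 and 168 CPM in weekly libraries, and 135, 132, 144, 130 and 138 CPM in vehicle libraries. The weekly libraries all lay above the vehicle libraries, whereas the daily libraries lay on both sides of them. The change was 0.23 in weekly against vehicle (SE 0.14, limma BH-adjusted p = 0.316, exact permutation p = 0.00794). After TMM scaling that difference was 0.05, with an exact permutation p of 0.413. It passed in 1 of 30 alternatives, without weekly 4 and daily 3 (limma BH-adjusted p = 0.0328). In daily against vehicle the change was -0.0071 (95% interval -0.30 to 0.29, limma BH-adjusted p = 0.988).

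Cited4, which encodes a partner of the coactivators CBP and p300, was with Arrdc2 among the least abundant of the 10 genes. It had 2.08, 3.40, 1.39, 2.93 and 4.16 CPM in daily libraries, 4.00, 3.62, 2.92, 5.03 and 3.10 CPM in weekly libraries, and 4.99, 4.45, 4.81, 4.31 and 5.199 CPM in vehicle libraries 1 to 5. Daily libraries all lay below vehicle libraries, on 9 to 30 reads each, and weekly libraries other than weekly 4 did so too. The change of -0.74 in daily against vehicle did not pass (SE 0.23, limma BH-adjusted p = 0.0747), with an exact permutation p of 0.00794. It passed in 11 of 29 alternatives, over adjusted p of 0.00726 to 1, among them TMM scaling and leaving out daily 5 or weekly 4. On the log2(CPM + 0.5) scale the change of a gene this low is understated. Weekly against vehicle, the change was -0.33 (SE 0.23, limma BH-adjusted p = 0.385), and -0.43 without weekly 4.

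**Figure D3:**
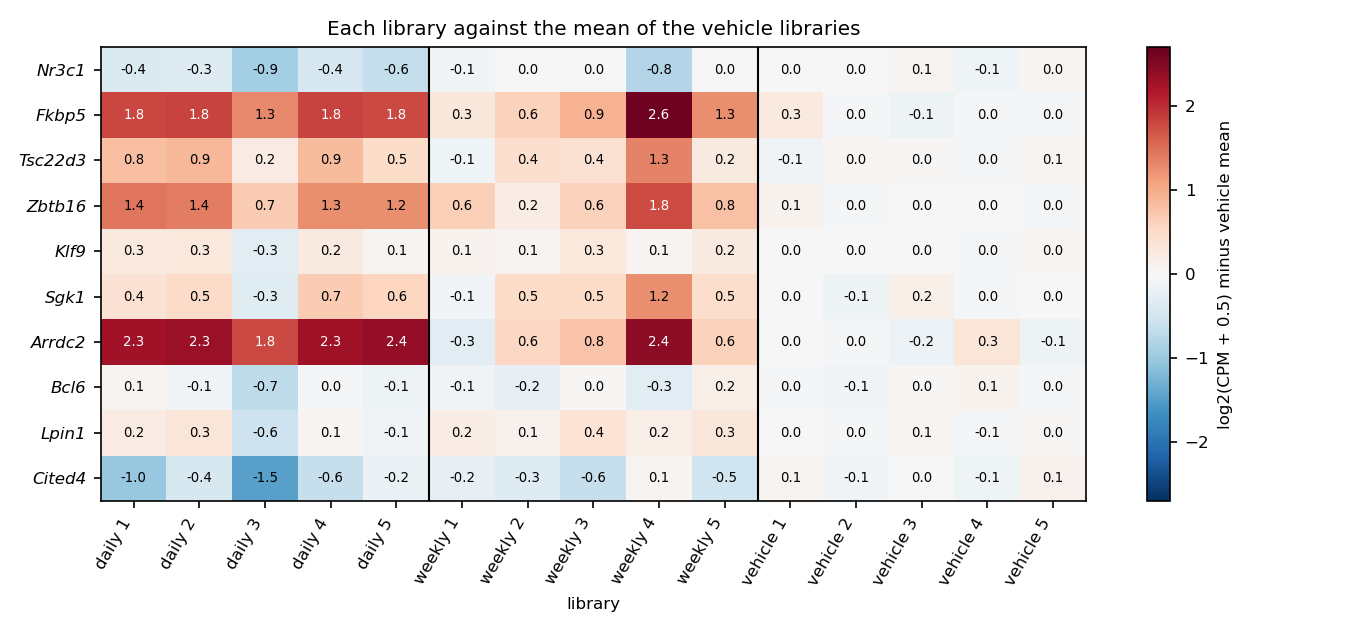
Log2(CPM + 0.5) of each gene in each library minus its mean over the vehicle libraries, with daily, weekly and vehicle libraries from left to right; red is above and blue below the vehicle mean. Weekly 4 stands at 2.6 for Fkbp5, 2.4 for Arrdc2 and -0.8 for Nr3c1, apart from the other weekly libraries. On this deposited scale daily 3 is lower than the other daily libraries in all 10 genes. After TMM scaling, not drawn here, it was the lowest daily library only in Sgk1.

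For several genes the difference between the schedules turned on weekly 4. Against the other weekly libraries it was above all of them in 6 genes (Fkbp5, Tsc22d3, Zbtb16, Sgk1, Arrdc2 and Cited4), below all of them in Nr3c1 and Bcl6, and within their range in Klf9 and Lpin1. In the first 6 genes it also exceeded every daily library. With weekly 4, the daily and weekly libraries overlapped in 10 of 10 genes. Without it, the daily libraries lay wholly above the weekly ones in Fkbp5 and Arrdc2, wholly below in Nr3c1, and overlapped them in 7 genes. How many of all genes separated in this way was not counted, so these numbers have no background. The median log2 change of all genes without weekly 4 was -0.22 in daily against weekly. The test of daily against weekly without weekly 4 called 5 members, of which Arrdc2, Fkbp5, Zbtb16 and Tsc22d3 rose and Nr3c1 fell by 0.54 on the log2 scale (limma BH-adjusted p = 0.00397). Over all genes the comparison had 1882 calls without weekly 4 and 1227 with it. Of the 14059 tested genes, 170 rose and 1712 fell without weekly 4. Summed fibroblast and macrophage markers, which were high in this library, moved with these values, and their part was not tested.

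**Figure D4:**
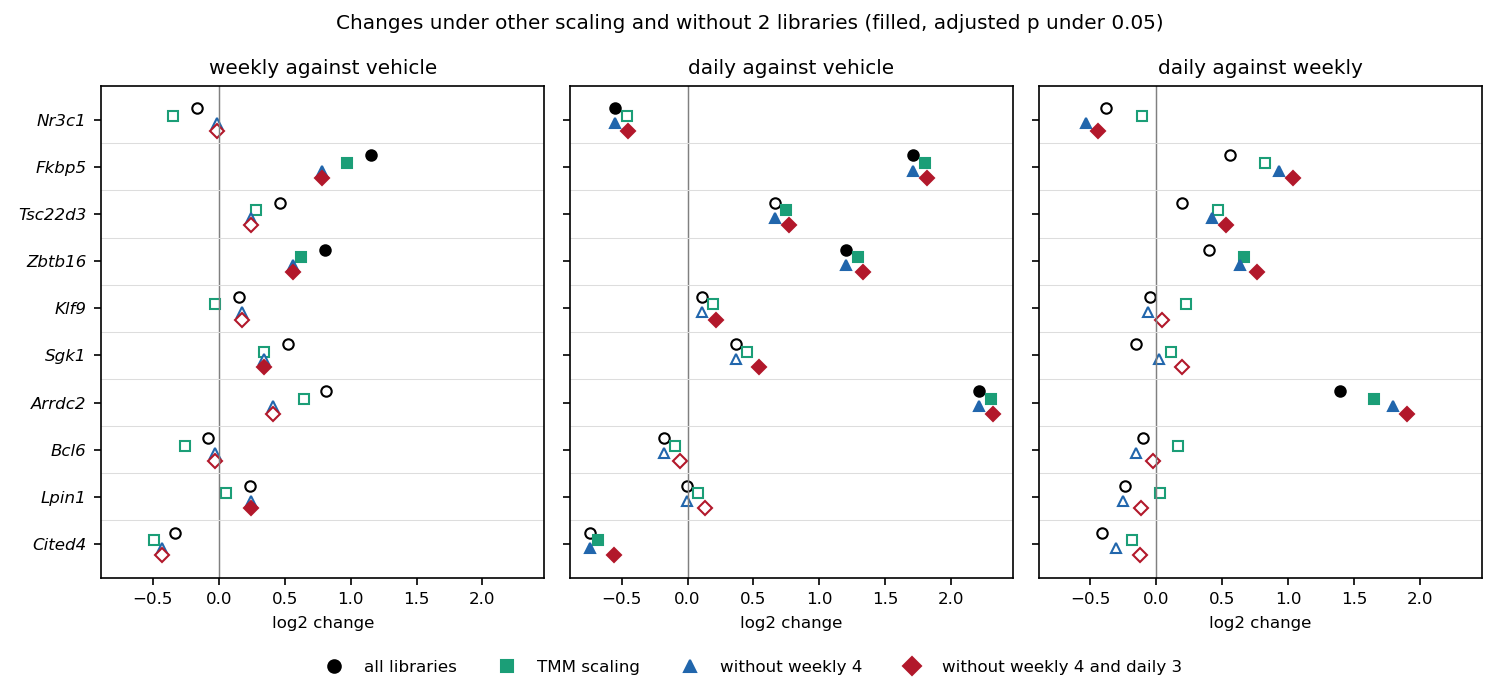
Log2 change of each gene in the 3 comparisons on the deposited scale with all libraries, after TMM scaling, without weekly 4, and without both weekly 4 and daily 3; filled symbols passed an adjusted p of 0.05. In daily against weekly, Fkbp5 is open with all libraries (0.56) and filled without weekly 4 (0.93), whereas Arrdc2 is filled under all 4 settings.

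The calls against vehicle rested on the 5 vehicle libraries counted as separate samples. Pairs of vehicle libraries differed by a chi-square per degree of freedom of 1.498 to 2.016, where read sampling alone gives 1. Pairs of daily libraries differed by 4.63 to 212 and pairs of weekly libraries by 19.4 to 89.4. With the vehicle libraries averaged to 1 sample, assumed to vary like the other groups, 0 members passed against vehicle in limma, while 3 in daily and 1 in weekly had an unadjusted p under 0.05. The log2 changes of the averaged fit stayed close, with 2.20 for Arrdc2 and 1.70 for Fkbp5 in daily against vehicle, and the smallest limma BH-adjusted p of a member against vehicle was 0.733. With all vehicle libraries, edgeR on recovered reads called 6 members in daily (4 rose, 2 fell) and 2 in weekly against vehicle (2 rose). DESeq2 called 8 in daily (6 rose, 2 fell) and 4 in weekly against vehicle (3 rose, 1 fell). Of all 14059 tested genes, edgeR called 1333 in daily and 1584 in weekly against vehicle, and DESeq2 called 1596 and 1904. Arrdc2 in daily against weekly passed in all 30 alternatives, with changes of 1.12 to 2.01. The vehicle libraries entered its test through the shared estimate of spread, and in the fit of daily and weekly libraries alone it passed narrowly (limma BH-adjusted p = 0.0474, over 1.9e-09 to 0.0478 in the alternatives).

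Levels were compared between the genes per kb of exon, with exon lengths from GENCODE M21. In daily muscle Tsc22d3 was highest, at 61.8 ± 11.6 CPM per kb, followed by Zbtb16 at 35.3 ± 6.50 CPM per kb (SD, n = 5). Klf9, Sgk1, Nr3c1 and Lpin1 lay between 14.3 and 16.9 CPM per kb there, and each differed from its neighbour in that order by less than the larger SD of the pair. In vehicle muscle Tsc22d3 was also highest, at 38.5 ± 1.76 CPM per kb, followed by Nr3c1 at 20.7 ± 0.960 CPM per kb. Klf9 at 15.5 ± 0.394 and Zbtb16 at 15.04 ± 0.589 CPM per kb differed by less than the SD of Zbtb16 in vehicle muscle. Fkbp5 reached 10.7 ± 1.54 CPM per kb in daily and 8.61 ± 6.63 CPM per kb in weekly muscle, against 3.22 ± 0.369 CPM per kb in vehicle muscle. Arrdc2 was lowest in vehicle muscle, at 1.25 ± 0.207 CPM per kb, and Cited4 was lowest in daily muscle, at 2.23 ± 0.869 CPM per kb. Overlap with another gene's exons was found only for Bcl6, at 0.313% of its exon bases.

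For the 4 genes that passed in 1 comparison or more, the most similar profiles were sought among 11451 other genes, as the root mean square distance over the 15 libraries after centring on the vehicle mean. Close to Fkbp5 was Cdkn1a at 0.286 log2 units, where Fkbp5 itself lay 1.29 from its vehicle mean. For Zbtb16 they were Nfkbia at 0.171 and Col24a1 at 0.191. Nr3c1 had Nedd4 at 0.0829 and Rpl27 at 0.1. Arrdc2 had Fam107a at 0.437 and Greb1 at 0.549, and was nearer to another member, Fkbp5, at 0.392.

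Other genes of the pathway were read from 4 lists. Among 19 tested genes of receptor handling (chaperones, co-chaperones and steroid-converting enzymes), 0 rose and 0 fell in daily against vehicle, 4 rose and 0 fell in weekly against vehicle, and 0 rose and 7 fell in daily against weekly with limma. Of all tested genes 6.99% rose in weekly against vehicle and 8.24% fell in daily against weekly. Without adjustment 2 were lower in daily than in vehicle muscle at p under 0.05 in limma, and 1 fell by edgeR and by DESeq2. Hsp90aa1, the inducible cytosolic HSP90 that holds the receptor, had 56.1 ± 9.12 CPM in daily, 104 ± 15.8 CPM in weekly and 53.6 ± 2.60 CPM in vehicle muscle (SD, n = 5). It rose by 0.94 on the log2 scale in weekly against vehicle (limma BH-adjusted p = 0.000224) and fell by 0.88 in daily against weekly (limma BH-adjusted p = 0.00063). Hspa8, an HSP70 chaperone, also rose in weekly against vehicle, by 0.64 (limma BH-adjusted p = 0.00459), or by 0.40 with median centring. Hsd11b1, the enzyme that converts inactive to active glucocorticoid, fell by 2.47 in daily against weekly (limma BH-adjusted p = 0.00354), with 1.59 ± 0.463 CPM in daily, 16.4 ± 14.8 CPM in weekly and 3.95 ± 0.492 CPM in vehicle muscle. Without weekly 4 and daily 3 the same list gave 15 rising and 1 falling genes in weekly against vehicle and 11 falling genes in daily against weekly. Of all 14059 tested genes, 2827 rose and 502 fell in weekly against vehicle at that setting, and 1618 fell in daily against weekly. The median of the list was 0.40 in weekly against vehicle, where that of all genes was 0.17.

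Receptor coregulators had few calls, as did all genes. Of 20 tested, 0 passed in daily against vehicle, 1 rose in weekly against vehicle and 0 passed in daily against weekly with limma. Over all genes 1.76% rose and 2.13% fell in daily against vehicle, and 6.99% rose in weekly against vehicle, so these shares lay near the background. At an unadjusted p under 0.05, 3 were lower in daily than in vehicle and 4 lower in daily than in weekly muscle. By edgeR 0 passed in either of those comparisons. By DESeq2 1 rose and 2 fell in daily against vehicle, and 1 rose and 0 fell in daily against weekly. The gene that rose in weekly against vehicle in limma was Hexim1, an inhibitor of transcription elongation that also binds the receptor, with 36.2 ± 4.96 CPM in weekly and 23.6 ± 1.35 CPM in vehicle muscle (log2 change 0.60, limma BH-adjusted p = 0.0144, and 0.37 with quantile scaling). Smarcd1 and Crtc2 came next by p and did not pass (limma BH-adjusted p = 0.0598 and 0.0655 in weekly against vehicle). Without weekly 4 and daily 3, 6 rose in weekly against vehicle, and 3 rose and 2 fell in daily against vehicle. At that setting 2827 of all 14059 tested genes rose in weekly against vehicle, and 1539 rose and 885 fell in daily against vehicle.

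Of 38 other genes known as glucocorticoid-induced targets in various tissues, 14 rose and 3 fell in daily against vehicle, and 19 rose and 1 fell in weekly against vehicle. Of these, 1 rose and 6 fell in daily against weekly. The shares over all genes were 1.76% and 2.13% in daily against vehicle, 6.99% and 1.07% in weekly against vehicle, and 0.484% and 8.24% in daily against weekly. The metallothionein gene Mt2 had 95.2 ± 26.0 CPM in daily, 136 ± 49.5 CPM in weekly and 18.1 ± 1.71 CPM in vehicle muscle, and rose by 2.33 and 2.79 on the log2 scale in daily and in weekly against vehicle (limma BH-adjusted p = 1.12e-06 and 4.27e-08). Its relative Mt1 rose by 2.17 in daily and 2.79 in weekly against vehicle (limma BH-adjusted p = 3.82e-06 and 6.14e-08), and reads shared between such close copies could be split by counting. Nfil3, a transcription repressor of the circadian system, rose by 2.06 in daily and by 1.90 in weekly against vehicle (limma BH-adjusted p = 4.9e-07 and 7.67e-07). Fbxo32, the atrophy-linked ubiquitin ligase atrogin-1, did not rise with the list. Named after its value was seen, it fell by 0.97 in daily (limma BH-adjusted p = 0.000456) and by 0.92 in weekly against vehicle (limma BH-adjusted p = 0.000531), with 302, 315 and 586 CPM as the means of daily, weekly and vehicle muscle. The median change of the list was 0.39 in daily and 0.66 in weekly against vehicle, where those of all genes were -0.08 and 0.17. TMM scaling gave 19 rising and 4 falling genes in daily against vehicle, 15 and 4 in weekly against vehicle, and 7 and 3 in daily against weekly.

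Inflammatory genes that glucocorticoids are known to repress were the last list, and 10 of 20 could be tested. In daily against vehicle 1 rose and 0 fell, in weekly against vehicle 2 rose and 0 fell, and in daily against weekly 0 rose and 1 fell. For so short a list, these counts stand beside 1.76% of all genes rising in daily against vehicle, 6.99% rising in weekly against vehicle and 8.24% falling in daily against weekly. Those that passed against vehicle were higher under treatment. At an unadjusted limma p under 0.05, 1 was lower in daily than in vehicle muscle and 0 were lower in weekly than in vehicle muscle. The lower gene was the chemokine Ccl2, at -0.66 in daily against vehicle (limma BH-adjusted p = 0.274). All 5 of 5 daily libraries lay below all vehicle libraries, at means of 1.30 and 2.31 CPM. Mmp9, a gelatinase of leukocytes and injured muscle, had 1.94 ± 0.699 CPM in daily, 11.2 ± 10.5 CPM in weekly and 1.43 ± 0.213 CPM in vehicle muscle, and rose by 2.22 on the log2 scale in weekly against vehicle (limma BH-adjusted p = 0.000789). Ccl7, a monocyte-attracting chemokine, rose by 1.13 in weekly against vehicle (limma BH-adjusted p = 0.0209), a call that ended without weekly 3 or weekly 5 (limma BH-adjusted p = 0.0615 and 0.0698, over the alternatives up to 1) or without vehicle 2, 3 or 4. Mmp13, a collagenase, rose by 2.28 in daily against vehicle (limma BH-adjusted p = 0.00416) and by 3.89 with edgeR on recovered reads. It had 3.44 ± 2.62 CPM in daily, 1.31 ± 1.73 CPM in weekly and 0.231 ± 0.268 CPM in vehicle muscle. The vehicle mean lay below the value of 3 reads, which was 0.332 to 0.365 CPM in vehicle libraries. Mmp13 met the filter on low values only through prednisone libraries, where it was higher, so its call carries little weight.

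**Figure D5:**
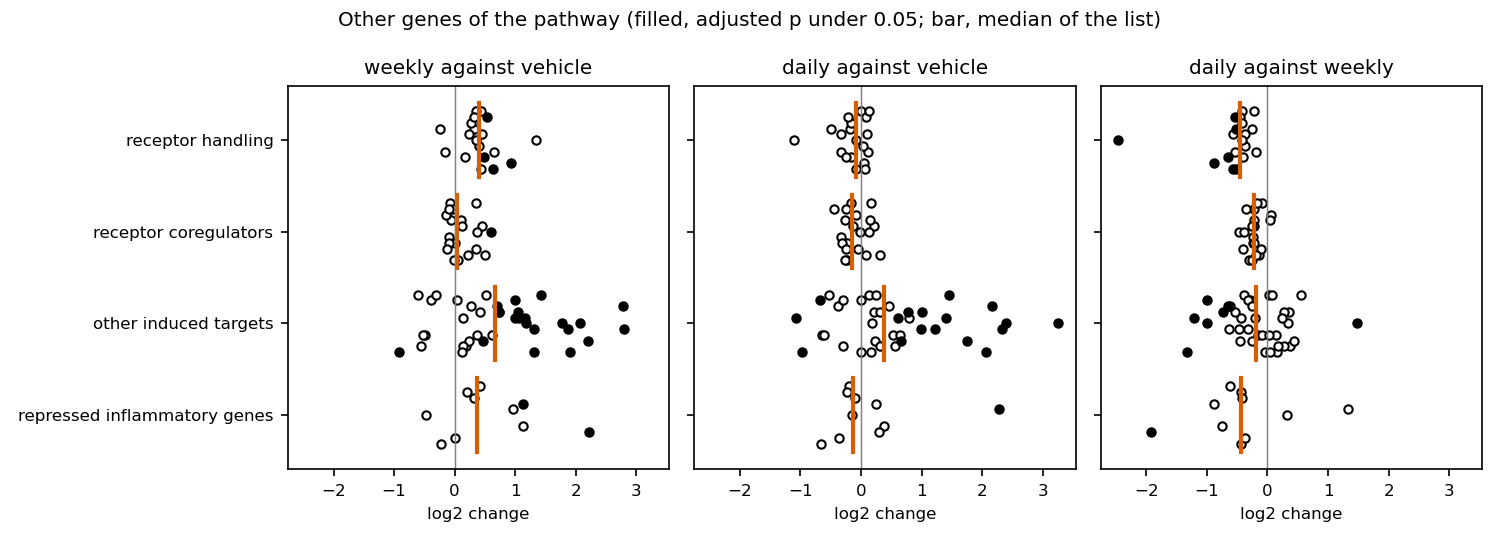
Log2 change of each tested gene of the 4 pathway lists in the 3 comparisons; filled points passed an adjusted p of 0.05 and the bar is the median of the list. Most filled points lie in the list of other induced targets, right of 0 against vehicle (14 in daily, 19 in weekly), and in receptor handling filled points lie left of 0 in daily against weekly (7 genes).

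Markers of other cell types moved with the groups. The 8 of 8 adipocyte markers had sums of 137 to 313 CPM in daily libraries. The sums were 478 to 2315 CPM in weekly libraries and 439 to 477 CPM in vehicle libraries. These ranges did not overlap between daily and vehicle or, by less than 1 CPM, between weekly and vehicle. Single markers differed. Daily Adipoq, Cidec, Plin1, Retn, Cfd and Fabp4 lay wholly below vehicle, but Pparg and Lep overlapped it. In weekly 4, Cidec and Pparg lay below all vehicle libraries. Adipoq, Lep and Cfd lay above them, and Plin1, Retn and Fabp4 within their range. The 3 of 5 blood markers measured had sums of 23.4 to 45.1 CPM in daily libraries, of 43.5 to 78.3 CPM in weekly libraries and of 79.1 to 84.8 CPM in vehicle libraries. Fibroblast markers had sums of 1628 to 2902 CPM in daily libraries, of 1790 to 19355 CPM in weekly libraries and of 1653 to 1860.5 CPM in vehicle libraries. These markers did not move as 1 set. Daily Col1a1 lay wholly above vehicle, at 631 to 1123 CPM against 395 to 439 CPM. Daily Dcn lay wholly below vehicle, at 105 to 160 CPM against 187 to 206 CPM, and so did Lum and Dpt. Endothelial markers, 8 of 8, had sums of 134 to 213 CPM in daily libraries, of 233 to 367 CPM in weekly libraries and of 218 to 234 CPM in vehicle libraries. For 5 of 6 smooth muscle markers the sums were 124 to 189 CPM in daily libraries, 189 to 242 CPM in weekly libraries and 169 to 176 CPM in vehicle libraries. Skeletal muscle markers had sums of 47745 to 74779 CPM in daily libraries, of 62787 to 107030 CPM in weekly libraries and of 79066 to 81190 CPM in vehicle libraries, with daily wholly below vehicle. Schwann cell markers, 7 of 7, had sums of 55.3 to 88.3 CPM in daily libraries, of 64.9 to 103 CPM in weekly libraries and of 59.3 to 65.0 CPM in vehicle libraries. No measured marker of these lists was at 0 in every library of a group. Of the lymphocyte markers, 0 of 8 could be used here. The part of these cell types in the changes of the receptor and its targets was not tested.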

How the data were processed

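RNA of 15 quadriceps libraries was sequenced as 150 bp paired-end reads from stranded total RNA libraries. Per the submitters' processing notes, TopHat2 2.1.0, HTSeq and edgeR were used with mm10/GRCm38; no source used here states the strand setting of the counting. RPKM is the unit named by the labels for the deposited values, but the authors' values are CPM: all 222090 of 222090 were whole multiples of the value of 1 read in their library, within 0.01 reads. For weekly 3 that value lies near a power of 10, so rounding cannot be told apart from whole reads there; its reads were recovered in the same way. Features without a gene name (534) and 9 empty columns were left out.

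Genes of at least 1 CPM in at least 5 libraries (14059, with 213 removed) were tested on log2(CPM + 0.5) with limma 3.58.1 (R 4.3.3, trended prior), with all 15 libraries in 1 fit and Benjamini-Hochberg adjustment over all tested genes at 0.05. Changes on this scale understate those of low genes. Single members were also compared by exact permutation, two-sided and unadjusted, with 252 arrangements of 5 against 5. Alternatives were TMM, quantile and median scaling, other pseudocounts and filters, edgeR 4.0.16 and DESeq2 1.42.0 on recovered reads, group weights, 2-group fits, averaged vehicle libraries, a replicate block and libraries left out. The fits were tested on simulated data. No 2 libraries of a group agreed within sampling noise.

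The genes named are the 10 members, the 3 genes of smallest p of each pathway list, and the 2 nearest profiles of each called member, of which 1 is not reported here; Fbxo32 was added after its values were seen. Members, lists and alternatives were chosen with earlier results of these data known. Promoter sequences are from RefSeq; Zbtb16 and Nr3c1 are not shown. Counting error alone is covered by the limit of 3 reads.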

Additional observations from a re-analysis of the deposited data

Results flagged for a closer look

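Of 30 sets of 5 libraries (10 genes in 3 groups), 9 held a library far from the others, judged by its gap to the nearest library as a share of the range of the group. Chance marks about 1 in 20 such sets. Weekly 4 was the library in 5 of the 9. It had 91.7 CPM of Nr3c1, where the other 4 had 151.1 to 161 CPM. Fkbp5 stood at 191.3 CPM in it, against 37.38 to 73.14 CPM, and Arrdc2 at 23.73 CPM, against 3.204 to 7.147 CPM. Tsc22d3 had 425.1 CPM there, against 153.4 to 227.2 CPM, and Zbtb16 had 272.2 CPM, against 91.29 to 137.1 CPM. On the deposited scale daily 3 was low in Fkbp5, at 75.59 CPM against 105.6 to 109.5 CPM in the other daily libraries. It was also low in Arrdc2, at 15.02 CPM against 21.33 to 23 CPM. Neither held after TMM scaling. Fkbp5 in daily 3 was then 1.88 log2 units above the vehicle mean, against 1.75 to 1.82 in the other daily libraries. Arrdc2 in daily 3 was at 2.36, within the 2.23 to 2.42 of the others. In the narrow vehicle group, vehicle 1 had 36.52 CPM of Fkbp5, against 27.36 to 29.73 CPM, and vehicle 4 had 5.199 CPM of Arrdc2, against 3.549 to 4.017 CPM.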

How the results depend on the processing

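The 7 calls of members kept direction in all 210 repeats and their side of the threshold in 185; among 687 repeats of the 23 uncalled changes, 62 passed and 45 changed sign, 3 of them both. Of the 28 results on other named genes, 65 of 833 repeats lost the call and 0 changed sign. Of the 1133 genes called in weekly against vehicle, the count became 1904 with DESeq2, 1811 with group weights, 7 with vehicle averaged, 3329 without weekly 4 and daily 3 and 2403 with TMM as well, and 644 to 2253 with 1 library left out. The 2 members called there became 4, 5, 0 and 4 under the first 4 of these settings, 1 in a 2-group fit, and 2 to 5 with 1 library left out, 5 without weekly 1. In daily against vehicle the 547 genes became 1274 with TMM, 1290 with quantile scaling, 1230 with median centring, 1333 with edgeR, 1596 with DESeq2, 1195 with group weights, 1685 in a 2-group fit, 3 with vehicle averaged, 2424 without both libraries and 2845 with TMM as well, and 348 to 1475 with 1 library left out. The 4 members became 7 with quantile scaling, 8 with DESeq2, 0 with vehicle averaged, 8 without both libraries and 7 with TMM as well, and 3 to 6 with 1 library left out. In daily against weekly the 1227 genes became 663 with TMM, 702 with quantile scaling, 644 with median centring, 746 with edgeR, 560 with group weights, 232 in a 2-group fit and with vehicle averaged, 2039 without both libraries, and 520 to 1882 with 1 library left out. The 1 member became 2 with TMM and with median centring, 3 with quantile scaling and with DESeq2, 5 without both libraries and 6 with TMM as well, and 1 to 5 with 1 library left out. With vehicle averaged, limma has 1 vehicle sample in place of 5 by construction; elsewhere the cause was not tested.

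Some changes turned sign. Klf9 in weekly against vehicle (0.15) was -0.025 with TMM, -0.055 with quantile scaling, -0.086 with median centring, -0.017 with edgeR and -0.014 with DESeq2, and Lpin1 (0.23) was -0.0071 with median centring. In daily against vehicle Lpin1 (-0.0071) was 0.080 with TMM, 0.126 with quantile scaling, 0.034 with median centring, 0.086 with edgeR, 0.078 with DESeq2, 0.129 without both libraries and 0.079 with TMM as well, and -0.090 to 0.129 with 1 library left out. In daily against weekly, under TMM, quantile scaling, median centring, edgeR and DESeq2, Klf9 (-0.05) was 0.22, 0.29, 0.24, 0.22 and 0.20, Sgk1 (-0.16) was 0.11, 0.17, 0.13, 0.087 and 0.081, Bcl6 (-0.10) was 0.16, 0.20, 0.18, 0.15 and 0.14, and Lpin1 (-0.24) was 0.027, 0.079, 0.041, 0.026 and 0.022. Of these, Klf9 passed with quantile scaling and DESeq2 (adjusted p = 0.0256 and 0.0353). Without both libraries Klf9 was 0.040 and Sgk1 0.20, and with TMM as well Klf9 was 0.15, Sgk1 0.31, which passed (adjusted p = 0.0462), and Bcl6 0.083. With 1 library left out Klf9 ran over -0.089 to 0.059, Sgk1 over -0.31 to 0.023 and Bcl6 over -0.16 to 0.024. The exact permutation p under TMM, in place of the deposited scale, was 0.0159 for Nr3c1 (0.389), 0.794 for Klf9 (0.00794), 0.0714 for Sgk1 (0.0397), 0.00794 for Bcl6 (0.373) and 0.413 for Lpin1 (0.00794) in weekly against vehicle. It was 0.00794 for Klf9 (0.397) and for Sgk1 (0.0714) in daily against vehicle, and 0.0476 for Fkbp5 (0.19) and Zbtb16 (0.183) and 0.00794 for Klf9 (0.762) in daily against weekly.

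Replicate numbers were shared across groups, but same-numbered libraries did not deviate together. Their correlations ran from -0.0293 to 0.146, 1 of 15 was over 0.1, and 4 of 30 times a library correlated best with its own number. With the number as a replicate block, 494 genes were called in daily, 1096 in weekly against vehicle and 985 in daily against weekly, with 3, 2 and 1 members; the member lost was Nr3c1 (limma BH-adjusted p = 0.0672, over 1.53e-05 to 1 in the alternatives). Cited4 gave no value under the filter of 5 CPM. It rested on 9 to 46 reads per library, so counting error weighs on it.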
